A study of Mus musculus with 6 samples.

Results

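The library of Ctbp2 knock-down cells in retinoic acid (RA), shCtbp2_RA, was set against the control library in RA, shGFP_RA, gene by gene. All genes with a mean of at least 20 normalised reads over the 6 libraries of the series entered, which left 12332 of the 25904 genes deposited. A normalised read is 1 read per 10000000 counted in genes. A log2 difference is log2(value + 10) in the knock-down library minus the same in the control, so a negative value means lower with less Ctbp2, and the added 10 understates the difference of low genes. At least 2-fold means a log2 difference of at least 1 on this scale. A fold is the plain ratio of the levels, followed in brackets by its 95% counting interval, which is an exact binomial (Clopper-Pearson) interval and covers counting error only.

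Ctbp2 encodes C-terminal binding protein 2, a nuclear protein with a dinucleotide-binding fold that pairs with itself or with its close relative Ctbp1. It is best known as a corepressor that brings histone deacetylases, the demethylase Kdm1a and the methyltransferases Ehmt1 and Ehmt2 to DNA-bound factors. RA acts through RA receptors that sit on DNA paired with retinoid X receptors; binding of RA exchanges corepressors for coactivators and switches on genes of RA uptake and breakdown, Hox genes and, in F9 cells, endoderm genes. F9 is a mouse teratocarcinoma line that resembles early embryonic stem-like cells, expresses pluripotency genes and loses them slowly as it becomes endoderm-like in RA.

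The series asks how gene expression differs across the genome when Ctbp2 is knocked down. Each of 3 F9 lines expressed 1 short hairpin: the control hairpin shGFP, shCtbp2 against Ctbp2, or shRxr against a retinoid X receptor the labels do not specify. All lines grew on gelatin in medium with serum stripped of retinoids by charcoal, and each was harvested untreated (UT) or after 48 hours in 1 µM all-trans RA. Each of the 6 groups is 1 library of a TruSeq RNA kit sequenced on a HiSeq 2000, and the labels name no replicate culture, clone or second hairpin. With 1 library a side there is no replicate check and no p-value, and a difference can come from the hairpin, the culture or the library. The reads counted in genes numbered 9955808 to 13322506 a library, with 13322506 in shGFP_RA and 10103347 in shCtbp2_RA, where the 100 most-read genes held 14.9% and 18.6%. In bulk RNA, fewer cells of a type and less RNA per cell cannot be told apart. The F9 markers Pou5f1, Sox2, Lin28a, Tdgf1 and Sall4 were read in every library, and the RA targets Crabp2, Stra8, Cyp26a1 and Rarb were higher in each RA library than in the untreated library of its line.

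Ctbp2 itself (ENSMUSG00000030970, mm9 chr7:140179246-140316037) stood at 1811 normalised reads in shGFP_UT, 210.1 in shCtbp2_UT and 1632 in shRxr_UT, and at 701 in shGFP_RA, 55.4 in shCtbp2_RA and 1132 in shRxr_RA. Both shCtbp2 libraries were far below the other 4, and the library compared here was the lowest. The log2 difference of Ctbp2 in RA was -3.44, or -3.51 after a correction for GC content and length that is described next. The paralog Ctbp1 (ENSMUSG00000037373, mm9 chr5:33590372-33617618) stood at 1141 in shGFP_UT, 1127 in shCtbp2_UT and 1192 in shRxr_UT, and at 1699 in shGFP_RA, 2155 in shCtbp2_RA and 1255 in shRxr_RA. Its highest level of the 6 was in shCtbp2_RA, 1.27-fold higher (1.2 to 1.35) than shGFP_RA, and the 3 untreated libraries lay close together.

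Of the 12332 genes, 392 (3.18%) were at least 2-fold higher in shCtbp2_RA and 1831 (14.8%) at least 2-fold lower, and the median gene had a log2 difference of -0.19. By any amount, 5075 genes were above the control and 7257 below it. Counts in the gene lists below are to be read beside these counts and shares. Untreated, shCtbp2_UT against shGFP_UT gave 172 genes higher (1.39%) and 288 lower (2.34%), with a median of -0.03; these libraries are not used in the RA comparison. Against the same control library, shRxr_RA gave 461 higher (3.74%) and 323 lower (2.62%). The spread in RA was wider too, with the middle 50% of genes from -0.76 to 0.33 against -0.20 to 0.14 untreated. The counting interval of the ratio lay wholly past 2-fold for 252 of the 392 and 1071 of the 1831. For the others counting error alone reaches below 2-fold. Just inside the threshold were Cyc1, a cytochrome of the respiratory chain, at 2701 in shGFP_RA against 5439 in shCtbp2_RA, and the splicing regulator Hnrpdl, at 2548 against 1269. Just outside were the mitochondrial dehydrogenase Idh2, at 2521 against 5035, and the sorting nexin Snx30, at 749.9 against 370.2, whose plain ratio is past 2-fold while its log2 difference on the scale with 10 added is not. Corrected for GC content and length, as described next, Cyc1, Hnrpdl and Snx30 had 0.52, -0.57 and -0.23.

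The RA difference followed the base composition and length of the transcripts, and the untreated difference did not. Across genes the RA difference had a Spearman correlation of 0.48 with GC content and -0.47 with transcript length, against -0.00 and -0.08 untreated; genes share the libraries and are not replicates. A trend with GC content was not particular to the Ctbp2 knock-down. The shRxr_RA library, set against the same shGFP_RA library, had -0.52 with GC content and 0.18 with length, the opposite direction. Its medians ran from 0.60 in the lowest GC decile to -0.29 in the highest. With genes ordered by length, the median of the shortest decile (median length 1078 bases) was 0.39 and that of the longest (8453 bases) -0.87, and 40.8% of the longest decile were at least 2-fold lower. By GC content, medians ran from -0.76 in the second-lowest decile to 0.31 in the highest. Subtracting the trend on both properties left 477 genes higher (3.93%) and 596 lower (4.91%) of 12133 with a known transcript, centred the median at -0.00, and is called corrected from here on; GC content alone left 575 (4.74%) and 778 (6.41%). The untreated pair, corrected in the same way, had 189 genes higher (1.56%) and 247 lower (2.04%). Of the 392 higher genes 230 of 390 with a value stayed past 2-fold after it (59.0%), and of the 1831 lower genes 444 of 1806 (24.6%). With 1 library a side, a property of the library and a response of the cells that follows GC content and length cannot be told apart, so the corrected log2 difference stands beside a named gene's measured one wherever it lies on the other side of 2-fold or differs by over 1.5 times. Scaling matters for the balance as well: equal upper quartiles moved the median gene by 0.14 and gave 622 higher and 1249 lower, so that 66.8% of calls were lower against 82.4% as reported, and median-of-ratios scaling moved it by 0.10 and gave 524 and 1401 (72.8%).

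**Figure D1:**
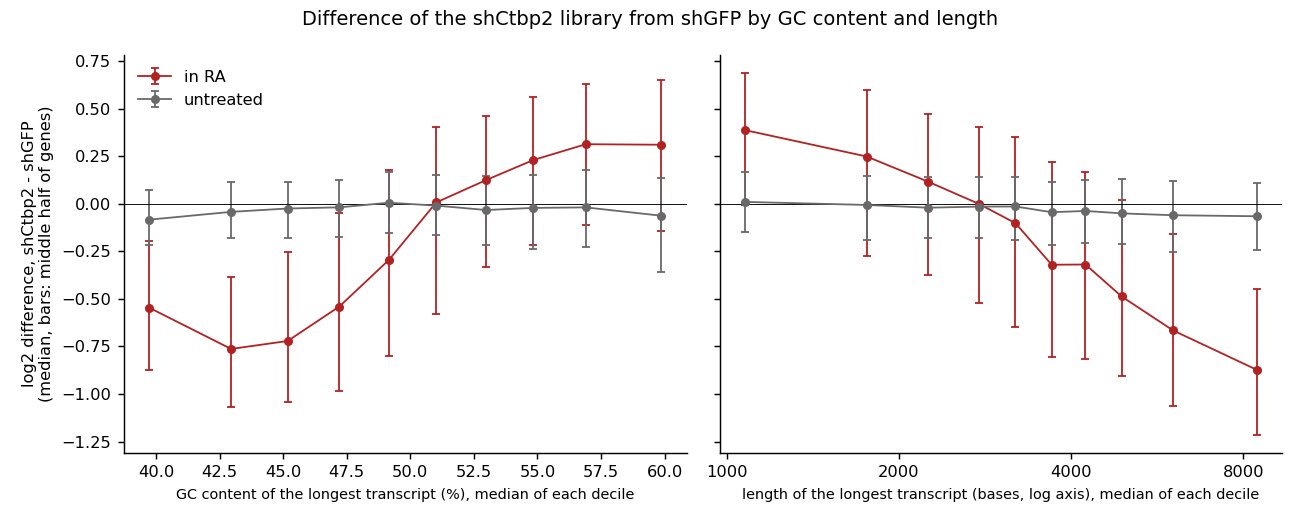
Median log2 difference (vertical axis; bars span the middle 50% of genes) of shCtbp2 from shGFP in RA (red) and untreated (grey), by deciles of genes ordered by GC content in percent (left) or transcript length in bases on a log axis (right). In RA the medians go from -0.55 in the lowest GC decile to -0.76 in the second-lowest and then climb to 0.31. They drop from 0.39 to -0.87 with length, while the untreated medians stay near 0.

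Genes that RA raised or lowered lay on opposite sides of the control, by their medians. The response was read in the shRxr line, whose libraries are not part of the comparison, and this split was chosen after the data were seen. The 649 genes at least 2-fold higher in shRxr_RA than in shRxr_UT had a median difference of -0.60 in the Ctbp2 comparison, and 216 of them (33.3%) were at least 2-fold lower and 26 higher. The 180 genes at least 2-fold lower with RA in that line had a median of 0.46, with 49 (27.2%) higher and 9 lower. The other 11503 genes had a median of -0.17, with 1606 (14.0%) lower and 317 higher. Corrected for GC content and length, the 3 medians were -0.47, 0.50 and 0.01, and 152 of 647 RA-raised genes were lower against 25 higher. Untreated, the same 3 classes had medians of -0.19, 0.14 and -0.03. By the median, then, genes raised by RA in another line stood lower and genes lowered by RA stood higher in the knock-down library.

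**Figure D2:**
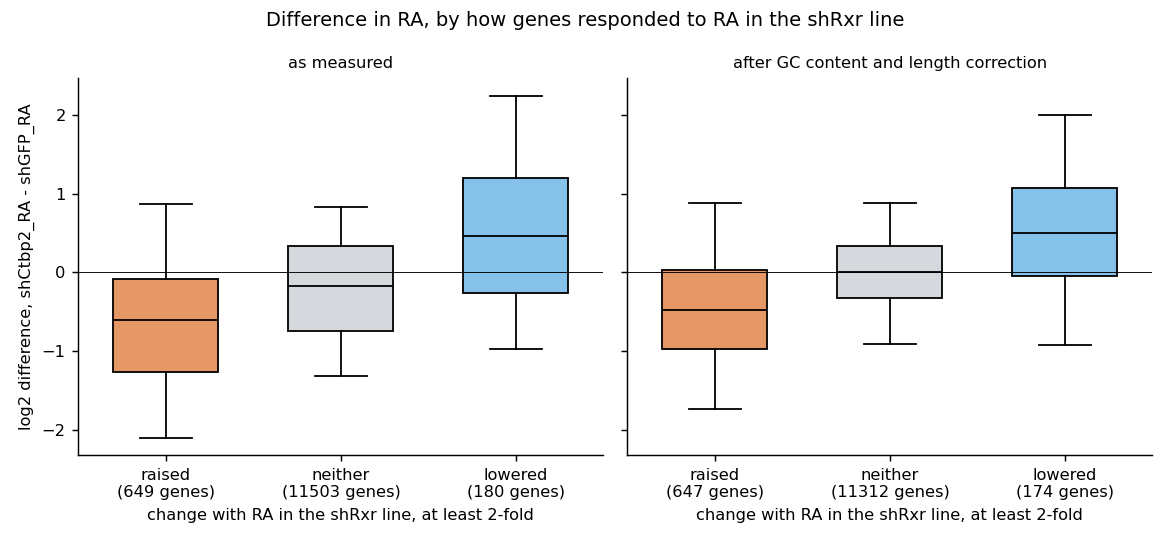
Log2 difference of shCtbp2_RA from shGFP_RA (vertical axis) for genes at least 2-fold raised, neither, or lowered by RA in the shRxr line, as measured (left) and after GC content and length correction (right); boxes span the middle 50% of genes with the median as a line, whiskers the 5th to 95th percentile. Raised genes lie lowest (median -0.60, corrected -0.47) and lowered genes highest (0.46 and 0.50).

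Among retinoid targets and genes of retinoid metabolism, the difference was uneven. Of 19 measured members of 20, 6 were at least 2-fold lower and 0 higher (median -0.50 in RA, -0.69 corrected and -0.11 untreated), beside 14.8% and 3.18% of all genes. The shRxr_RA library, set against the same control library, had 8 of the 19 lower and 0 higher (median -0.82). Crabp2, which carries RA to its receptors in the nucleus (ENSMUSG00000004885, mm9 chr3:87752588-87757298), stood at 14.5 in shGFP_UT, 38 in shCtbp2_UT and 14.2 in shRxr_UT, and at 1399 in shGFP_RA, 181 in shCtbp2_RA and 206 in shRxr_RA. It was high in shGFP_RA alone, 7.72-fold lower (6.63 to 9.04) in shCtbp2_RA, although untreated the shCtbp2 library had the highest level of the 3. Cyp26b1, an enzyme that breaks RA down, stood at 743 in shGFP_RA against 273 in shCtbp2_RA (2.72-fold lower, interval 2.38 to 3.12). Rarb, the receptor gene that RA itself induces (ENSMUSG00000017491, mm9 chr14:17263356-17651381), stood at 3.22 in shGFP_UT, 2.48 in shCtbp2_UT and 12.6 in shRxr_UT, and at 390.3 in shGFP_RA, 145 in shCtbp2_RA and 301 in shRxr_RA; it was 2.68-fold lower (2.23 to 3.24) than the control in RA, with a log2 difference of -1.36 that was just past 2-fold after correction. For Meis2, a homeodomain partner of Hox proteins, and Nrip1, a corepressor that RA induces, the corrected values shrank to -0.53 and -0.23 from -1.47 and -1.38.

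Other strongly RA-induced genes of the list were less than 2-fold lower than the control, or above it. Cyp26a1, the main RA-degrading enzyme of these cells, stood at 2894 in shGFP_RA against 2064 in shCtbp2_RA (1.4-fold lower, interval 1.33 to 1.48), with a log2 difference of -0.49 that was -0.86 after correction. Stra8, a gene of meiotic entry, stood at 6428 against 4587 (1.4-fold lower, interval 1.35 to 1.45). In shRxr_RA Cyp26a1 was much lower, at 509, and Stra8 at 4259. Stra6, a receptor for retinol uptake, was 1.67-fold higher (1.54 to 1.82) in shCtbp2_RA, at 748 against 1252, and the caudal homeobox gene Cdx1 1.54-fold higher (1.43 to 1.66), at 999.8 against 1542. Of the receptors, Rarg stood at 2534 in shGFP_RA against 5818 in shCtbp2_RA (2.3-fold higher, interval 2.2 to 2.4, corrected log2 difference 0.87), while Rara (1445 against 1549) and Rxra (805 against 821) differed little.

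The promoters of Rarb and Cyp26a1 are shown because both genes were near 0 untreated and high in RA, with Rarb past 2-fold lower in the comparison and Cyp26a1 short of it. After correction they lay closer together, Rarb just past 2-fold and Cyp26a1 at -0.86. Each window (RefSeq, GRCm38.p6; the deposited coordinates are mm9) holds a DR5 RA response element, a direct repeat of 2 RA receptor half-sites 5 bases apart, with the half-sites in capitals; both strands were searched.
Rarb (chr14:16575491-16575551, minus strand): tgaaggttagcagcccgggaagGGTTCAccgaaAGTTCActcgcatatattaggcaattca
Cyp26a1 (chr19:37697754-37697807, plus strand): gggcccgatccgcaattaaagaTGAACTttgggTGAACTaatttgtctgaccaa
In Rarb the repeat lies 53 to 37 bases before the start and reads along the gene, and in Cyp26a1 it lies 32 to 16 bases before the start and reads against it. The same repeat is in 32 of 32851 windows of 300 bases around gene starts (0.0974%), with 31 symbols, of which 4 were measured. Besides Rarb (log2 difference -1.36) and Cyp26a1 (-0.49), these were Blvrb (0.69, corrected 0.25), a biliverdin reductase, and Gm4631 (-0.16, corrected 0.37). As measured, 1 of 4 was at least 2-fold lower and 0 higher. A match of letters describes the window and does not show that a receptor binds there.

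Hox genes set position along the body axis and are switched on by RA from the anterior end of each cluster. Those of paralogs 1 to 5 stood lower in the knock-down. All 10 measured genes of paralogs 1 to 5 were below the control, 3 by at least 2-fold (median -0.88 in RA, -1.02 corrected and -0.05 untreated), and 5 were past 2-fold after correction. Among all 12332 genes 7257 were below the control, and 14.8% were at least 2-fold lower as measured. The shRxr_RA library, set against the same control library, had 6 of the 10 lower and 0 higher (median -1.29). Hoxb1 (ENSMUSG00000018973, mm9 chr11:96227066-96229570) stood at 0.805 in shGFP_UT, 0 in shCtbp2_UT and 0.837 in shRxr_UT, and at 551 in shGFP_RA, 106 in shCtbp2_RA and 123 in shRxr_RA. It was all but silent without RA in each line, and reached in shCtbp2_RA (5.2-fold lower, interval 4.24 to 6.43) about the level of shRxr_RA. Its neighbours Hoxb2 (109.6 against 25.7, 4.26-fold lower, interval 2.79 to 6.74) and Hoxb4 (337 against 160.3, 2.1-fold lower, interval 1.75 to 2.53) were the other members past the threshold. Of 9 measured genes of paralogs 6 to 13, 3 were at least 2-fold lower and 1 higher. Their median was -0.25 in RA, near the -0.19 of all genes, and -0.90 corrected. Relative to the median of all genes it ran from -1.33 to 0.01 between settings, and its sign changed. Only 1 of the 9 had a mean of at least 100. Hoxb6 (2.56-fold lower, interval 2.06 to 3.22), Hoxb9 (2.87-fold lower, interval 2.49 to 3.33) and Hoxc13 (3.45-fold lower, interval 2.16 to 5.75) were lower. Hoxd9 went the other way at both treatments, with 2.42 in shGFP_UT against 43.8 in shCtbp2_UT and 33 in shGFP_RA against 98 in shCtbp2_RA, though corrected it was short of 2-fold in RA (0.90). Of 9 Hox cofactors 4, with Meis1 (649 against 159), Meis2 and Pbx3 among them, were at least 2-fold lower, but none stayed past 2-fold after correction (Meis1 -0.83, Pbx3 -0.96).

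Among primitive endoderm genes the members past 2-fold as measured were 2 receptors and an adaptor, and none of the transcription factors. Of 11 primitive endoderm genes, 3 were at least 2-fold lower and 0 higher (median -0.64 in RA, -0.73 corrected and -0.17 untreated). The 3 were Lrp2, the endocytic receptor megalin, Pdgfra, a growth factor receptor, and Dab2, the adaptor that takes up megalin cargo. Lrp2 (ENSMUSG00000027070, mm9 chr2:69262397-69424122) stood at 668 in shGFP_UT, 454 in shCtbp2_UT and 584 in shRxr_UT, and at 2963 in shGFP_RA, 393 in shCtbp2_RA and 1515 in shRxr_RA. In both other lines it was higher with RA than without, and in the shCtbp2 line it was not. It was 7.54-fold lower (6.8 to 8.38) in RA, Pdgfra 4.13-fold lower (3.37 to 5.1) and Dab2 3.28-fold lower (2.86 to 3.76). Corrected, their log2 differences were -2.07, -1.14 and -0.91. The list still had 3 members past 2-fold lower, with a member not named here in place of Dab2. Measured counts stand beside 14.8% lower and 3.18% higher of all genes. Against the same control library, shRxr_RA had 5 of the 11 lower and 0 higher (median -0.96). Of the transcription factors of the endoderm programme, Gata4 stood at 883 in shGFP_RA against 806 in shCtbp2_RA (1.1-fold lower, interval 1 to 1.2). Gata6 stood at 739 against 435 (1.7-fold lower, interval 1.52 to 1.9) and Sox7 at 1277 against 1202. In all, 10 of the 11 list members were below the control, beside 7257 of all 12332 genes.

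Of 19 genes of parietal endoderm and its basement membrane, 4 were at least 2-fold lower and 1 higher (median -0.46 in RA, -0.51 corrected and 0.13 untreated). Of all genes 14.8% were lower and 3.18% higher. Against the same control library, shRxr_RA had 7 of the 19 lower and 1 higher (median -0.93). Plat, tissue plasminogen activator, stood at 19.3 in shGFP_UT, 3.31 in shCtbp2_UT and 7.53 in shRxr_UT, and at 456 in shGFP_RA, 97 in shCtbp2_RA and 92.4 in shRxr_RA, and was 4.71-fold lower (3.8 to 5.89, corrected -1.48) in RA. The laminin chains Lamb1 (2.83-fold lower, interval 2.67 to 3.01), Lamc1 (2.24-fold lower, interval 2.17 to 2.32) and Lama1 (2.08-fold lower, interval 1.99 to 2.18) were lower, whereas the collagen IV chains Col4a1 (8672 against 8028) and Col4a2 (6184 against 6797) and the matrix protein Sparc (5436 against 5653) stood level with the control. Corrected, Lamb1 had a log2 difference of -1.22, past 2-fold, and Lamc1 and Lama1 had -0.76 and -0.67, short of it. Krt8, an early keratin of this lineage, was the member higher, at 922 against 2408 in RA and 299.6 against 1751 untreated, so it was already higher without RA. Corrected, its RA difference was 0.90, short of 2-fold. Of 7 measured visceral endoderm genes, Lrp2 and its partner cubilin (Cubn, 3.02-fold lower, interval 2.37 to 3.9, corrected log2 difference -0.44) were lower and Amn, which anchors cubilin, was 4.45-fold higher (3.17 to 6.36). The summed level of that list was 5119.9 in shGFP_RA and 2512 in shCtbp2_RA, the largest share of it Lrp2 and Apoe, and the sign of its median changed between settings (-1.45 to 0.11).

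Pluripotency genes were the list with the most members higher. Of 30, 11 were at least 2-fold higher and 1, Lin28b, lower (median 0.23 in RA, 0.47 corrected and 0.01 untreated), and 11 higher and 0 lower after correction. Of all genes 3.18% were higher and 14.8% lower as measured. Against the same control library, shRxr_RA had 10 of the 30 higher and 0 lower (median 0.71). Pou5f1, or Oct4, the factor that holds cells in the pluripotent state (ENSMUSG00000024406, mm9 chr17:35642982-35647721), stood at 18172 in shGFP_UT, 18524 in shCtbp2_UT and 18536 in shRxr_UT, and at 8529.9 in shGFP_RA, 26185 in shCtbp2_RA and 13335 in shRxr_RA. The untreated libraries were alike, shGFP_RA and shRxr_RA were below them, and shCtbp2_RA was above all 5 others, 3.07-fold higher (3 to 3.14) than shGFP_RA. Its log2 difference of 1.62 was 1.02 after correction, near the threshold. Tcl1, a coactivator of the Akt kinase that Oct4 regulates, was 5.52-fold higher (4.76 to 6.44), at 163 in shGFP_RA against 899.7 in shCtbp2_RA, and Utf1, a chromatin factor of undifferentiated cells, 3.5-fold higher (3.2 to 3.82, corrected 1.16), at 514 against 1798. Dppa5a (3.42-fold higher, interval 3.28 to 3.56), the nuclear receptor gene Nr0b1 (3.16-fold higher, interval 2.9 to 3.45), Prdm14 (3.21-fold higher, interval 2.59 to 3.99), Fgf4 (2.93-fold higher, interval 2.69 to 3.2), Klf2 (2.75-fold higher, interval 2.63 to 2.87, corrected 0.98), Esrrb (2.72-fold higher, interval 2.64 to 2.81) and the Nodal co-receptor Tdgf1 (2.39-fold higher, interval 2.09 to 2.74) followed. Of these, Dppa5a, Klf2 and Esrrb were, like Pou5f1, above their own untreated level in shCtbp2_RA, and Fgf4, Prdm14, Nr0b1, Utf1, Tcl1 and Tdgf1 were below it. The correction was not applied to these levels, so their order between libraries, also for Pou5f1, may carry the trend with GC content and length. Nanog stood at 3258 in shGFP_RA against 5868 in shCtbp2_RA (1.8-fold higher, interval 1.73 to 1.87), corrected log2 difference 1.23. Other core members were close to the control, where Sox2 stood at 1480.2 against 1597, Zfp42 at 2201 against 2129 and Sall4 at 4575 against 5382. The RNA-binding proteins Lin28a (1.89-fold lower, interval 1.76 to 2.04) and Lin28b (2.48-fold lower, interval 1.89 to 3.27, corrected -0.41) were lower, at both treatments (untreated log2 differences -0.71 and -0.51).

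**Figure D3:**
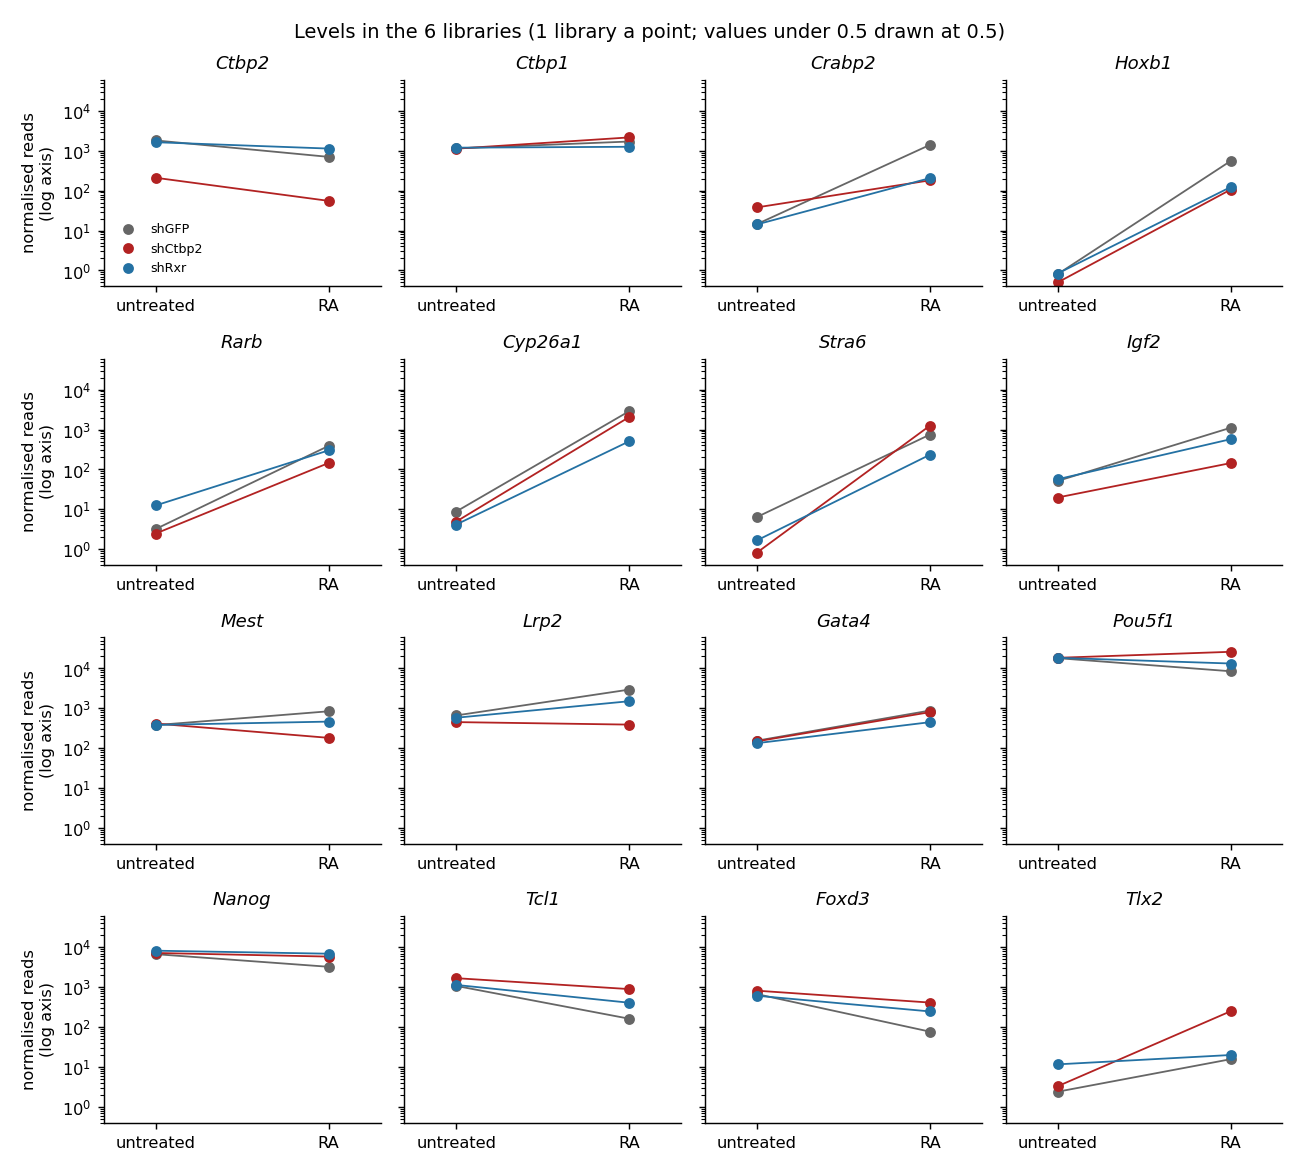
Normalised reads (log axis) of 16 genes in the untreated and RA libraries of the shGFP (grey), shCtbp2 (red) and shRxr (blue) lines, 1 library a point. Pou5f1 is highest in shCtbp2_RA, Crabp2, Hoxb1 and Igf2 are highest in shGFP_RA, and Gata4 is nearly level between shGFP_RA and shCtbp2_RA. Levels are not corrected for GC content or length.

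The lowest differences that stayed past 2-fold after correction were led by Fras1 (ENSMUSG00000034687, mm9 chr5:96802974-97213747), an extracellular matrix protein that joins epithelia to the tissue below. Fras1 stood at 41.1 in shGFP_UT, 17.4 in shCtbp2_UT and 44.4 in shRxr_UT, and at 390.3 in shGFP_RA, 16.8 in shCtbp2_RA and 111 in shRxr_RA, and was 23.2-fold lower (14.3 to 40.1) in RA. Its partner in the same matrix complex, Frem2, stood at 329 in shGFP_RA against 31.7 in shCtbp2_RA (10.4-fold lower, interval 7.24 to 15.4); both were also lower untreated, with log2 differences of -0.90 and -1.49. Thsd4, a microfibril-associated protein, was 12-fold lower (7.56 to 20.2). Cyclin D2 (Ccnd2), which drives entry into the cell cycle, stood at 547 in shGFP_UT, 207 in shCtbp2_UT and 557 in shRxr_UT, and at 2014 in shGFP_RA, 259 in shCtbp2_RA and 927 in shRxr_RA, the lowest of the RA libraries in the shCtbp2 line (7.77-fold lower, interval 6.84 to 8.85, corrected -2.08). Protogenin (Prtg), a receptor of the early neural tube (7.85-fold lower, interval 6.75 to 9.18, corrected -1.91), and the calcium channel Cacna1g (8.69-fold lower, interval 6.26 to 12.4) were among the 12 lowest too.

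Some of the largest differences were seen in RA with little difference untreated. Tlx2, a homeobox gene of neural crest derivatives (ENSMUSG00000068327, mm9 chr6:83018311-83020287), stood at 2.42 in shGFP_UT, 3.31 in shCtbp2_UT and 11.7 in shRxr_UT, and at 15.8 in shGFP_RA, 250.4 in shCtbp2_RA and 20.1 in shRxr_RA. Only the shCtbp2_RA library held it at a high level, 15.9-fold higher (10.2 to 26.1) than shGFP_RA, and its untreated log2 difference was 0.10. Foxd3, a repressor of embryonic stem cells and neural crest (77.3 against 414, 5.35-fold higher, interval 4.3 to 6.71), nephrin (Nphs1, 22.5 against 158, 7.03-fold higher, interval 4.74 to 10.8), Zfp296 (4.17-fold higher, interval 3.67 to 4.74), the nucleoside transporter Slc28a1 (4.42-fold higher, interval 3.46 to 5.69) and Notch4 (3.85-fold higher, interval 3.07 to 4.87) were lower with RA in shGFP and less so in shCtbp2. Cidea, a lipid-droplet protein, was near 0 without RA in shGFP and shCtbp2 and stood at 96.1 against 365 in RA (corrected 1.24). On the lower side, with an untreated difference within 0.3 of 0, were Tshz1, a zinc-finger homeobox factor (563 against 99.97, 5.63-fold lower, interval 4.57 to 7), Fndc1 (6.2-fold lower, interval 4.68 to 8.37), Nhsl2 (5.28-fold lower, interval 4.11 to 6.87, corrected -1.33), the guidance protein Sema6a (4.66-fold lower, interval 3.84 to 5.7, corrected -1.33) and Hoxb1. Over all genes, 139 of the 392 higher (35.5%) and 1087 of the 1831 lower (59.4%) had an untreated difference that small, as had 70.6% of all genes measured. After correction 68 and 127 of these were still past 2-fold.

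The untreated pair shares no library with the RA pair, and the direction was often the same in both. Of the 392 genes higher in RA 327 (83.4%) were above the control untreated by any amount, and of the 1831 lower genes 1330 (72.6%) were below it, beside 44.7% and 55.2% of all genes measured. Across genes the 2 differences had a Pearson correlation of 0.38 (Spearman 0.32), and 0.46 (0.37) with both corrected. Among the 12 highest, the creatine kinase gene Ckmt1 stood at 218 against 743 untreated and 110.3 against 846 in RA (7.67-fold higher, interval 6.43 to 9.2), and the cytochrome P450 gene Cyp2s1 at 528 against 1648 and 60.0 against 502 (8.36-fold higher, interval 6.59 to 10.7). Krt42, a keratin (9.12-fold higher, interval 6.68 to 12.7), Fetub, a secreted protease inhibitor (6.33-fold higher, interval 5.19 to 7.77), and the septin gene Sept1 (6.43-fold higher, interval 5.71 to 7.27) were also among them, Sept1 with an untreated log2 difference of only 0.49.

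**Figure D4:**
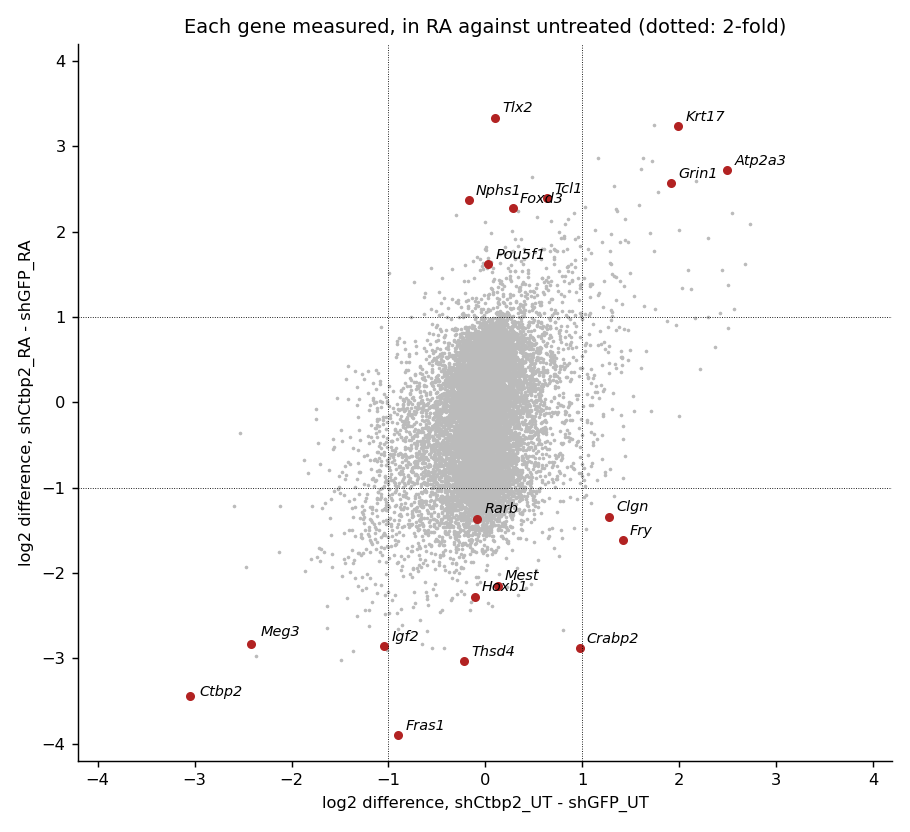
Log2 difference of shCtbp2 from shGFP in RA (vertical axis) against the same untreated (horizontal axis), 1 point a gene measured, with 2-fold marked by dotted lines. Selected genes, most of them named in the text, are in red. Ctbp2, Igf2 and Meg3 are low on both axes, whereas Tlx2, Foxd3, Pou5f1, Mest and Hoxb1 are past 2-fold in RA and near 0 untreated, and Crabp2 is low in RA and higher untreated.

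Imprinted genes, which are read from only the paternal or maternal copy, were mostly lower; both lists were kept because an earlier look at these data had shown this, so their direction is no independent finding. Of 15 measured genes read from the paternal copy, 8 were at least 2-fold lower and 0 higher (median -1.13 in RA, -0.75 corrected and -0.15 untreated). The shares of all genes were 14.8% and 3.18%. After correction 6 of the 15 were lower, beside 4.91% of all genes. The hydrolase-like gene Mest (ENSMUSG00000051855, mm9 chr6:30673547-30698457) stood at 382 in shGFP_UT, 418 in shCtbp2_UT and 386 in shRxr_UT, and at 847 in shGFP_RA, 183 in shCtbp2_RA and 467 in shRxr_RA, and was 4.63-fold lower (3.96 to 5.44) in RA and level with the control untreated. Plagl1, a zinc-finger factor that acts on other imprinted genes, was 3.55-fold lower (2.8 to 4.55, corrected -0.92) in RA and as much lower untreated (log2 -1.72), and Impact (2.78-fold lower, interval 2.53 to 3.05, corrected -0.75), Nnat (3.52-fold lower, interval 2.07 to 6.35) and Magel2 (2.94-fold lower, interval 1.68 to 5.46) were past 2-fold as well. Igf2, a fetal growth factor, kept a log2 difference of -2.87 after correction (-2.86 before), and Peg3 and Peg10 had -1.86 and -1.48. Snrpn, a splicing protein, went the other way, at 1782 against 2564, and Dlk1 (1.54-fold lower, interval 1.27 to 1.87) and Ndn (1.46-fold lower, interval 1.31 to 1.62, corrected 0.19) were short of 2-fold. Of 11 genes read from the maternal copy, 6 were at least 2-fold lower and 0 higher (median -1.13 in RA, -0.52 corrected and -0.49 untreated), beside 14.8% and 3.18% of all genes. After correction 4 of the 9 with a known transcript were lower. Igf2r, which clears Igf2 from the cell surface, stood at 1991 in shGFP_UT, 1381 in shCtbp2_UT and 2015 in shRxr_UT, and at 3246 in shGFP_RA, 941 in shCtbp2_RA and 2453 in shRxr_RA, and was 3.45-fold lower (3.21 to 3.7) in RA. Grb10, a growth-inhibiting adaptor, was 2.23-fold lower (1.96 to 2.54) in RA but above the control untreated (0.42), and had a corrected value of -0.52. H19, the noncoding RNA next to Igf2, stood at 53.3 against 27.7 (1.92-fold lower, interval 1.23 to 3.09, corrected -1.14), and Ascl2 and Tssc4 were not lower.

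Coregulators of nuclear receptors were lower as a list, and mostly so before correction only. Of 19, 9 were at least 2-fold lower and 0 higher, and 0 and 0 were past 2-fold after correction (median -0.87 in RA, -0.21 corrected and -0.05 untreated). As measured, 14.8% of all genes were lower and 3.18% higher. The median transcript length of the list was 7430.0 bases, against 3450 for all genes. In the longest decile of all genes 40.8% were at least 2-fold lower as measured. The acetyltransferase genes Ep300 (2724 in shGFP_RA against 981 in shCtbp2_RA) and Crebbp (1679 against 621) kept corrected values of -0.95 and -0.96, just short of 2-fold. Ncor1, a corepressor that unliganded receptors bind, stood at 4213 against 1963 (log2 -1.10, corrected -0.21), and the coactivators Ncoa1 and Ncoa2 had corrected values of -0.22 and -0.28. Among 15 members of the CtBP complex, Rcor1, a scaffold of Kdm1a, was 2.22-fold lower (1.99 to 2.47) and its relative Rcor2 2.42-fold higher (2.2 to 2.67), with corrected values of -0.42 and 0.92. Zeb1, a factor that recruits CtBP, was 2.11-fold lower (1.74 to 2.57) with a corrected value of -0.15. The enzymes Kdm1a (1446 against 1308) and Hdac1 (444 against 398) stood level. The median of this list, -0.15, changed sign between settings (-0.18 to 0.11).

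Of 11 subunits of Polycomb repressive complex 2, which methylates histone H3, 4 were at least 2-fold lower and 0 higher. The shares of all genes were 14.8% and 3.18%. After correction 0 were lower and 1 was higher. The 4 lower as measured were Rbbp7 (2.67-fold lower, interval 2.56 to 2.79, corrected -0.95), the enzyme Ezh2 (2.11-fold lower, interval 1.91 to 2.34, corrected -0.52), Jarid2 (corrected -0.20) and Aebp2 (corrected -0.16). In the DNA methylation list only the dioxygenase gene Tet3 was past 2-fold, at 396 against 138 (2.88-fold lower, interval 2.38 to 3.49, corrected -1.07). Tet1 stood at 6782 in shGFP_UT, 5925 in shCtbp2_UT and 6334 in shRxr_UT, and at 1051 in shGFP_RA, 885 in shCtbp2_RA and 3950.5 in shRxr_RA; it was far lower with RA than without in shGFP and shCtbp2 and less so in shRxr, and its log2 difference of -0.25 was 0.91 after correction. Dnmt1 (1.74-fold lower, interval 1.67 to 1.82) and Dnmt3b (1.44-fold lower, interval 1.34 to 1.54) were lower and the cofactor Dnmt3l higher (1.72-fold higher, interval 1.55 to 1.9), all short of 2-fold, and the sign of the median of this list changed between settings (-0.25 to 0.41).

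In the signalling lists a few members stood far from the control while most did not. Bmp4, a ligand of the BMP pathway (ENSMUSG00000021835, mm9 chr14:47003195-47010344), stood at 1259.7 in shGFP_UT, 1452 in shCtbp2_UT and 1017 in shRxr_UT, and at 163 in shGFP_RA, 567 in shCtbp2_RA and 373 in shRxr_RA. RA libraries were below untreated ones in each line, most so in shGFP, and in RA the knock-down was 3.48-fold higher (2.97 to 4.09) than its control. The BMP target genes Id2 (519 against 118, 4.4-fold lower, interval 3.62 to 5.4) and Id3 (2.35-fold lower, interval 1.95 to 2.85) were lower all the same, as were 3 receptor and Smad genes whose corrected values were short of 2-fold, at -0.55 (Bmpr1a), -0.33 (Smad5) and -0.05 (Bmpr2). Of 13 BMP genes, 5 were at least 2-fold lower and 1 higher, beside 14.8% and 3.18% of all genes. In the Nodal pathway, 3 of 15 were higher and 1 lower, and those higher were Tdgf1, the Smad partner Foxh1 (2.1-fold higher, interval 1.9 to 2.31, corrected 0.46) and Inhbb, a subunit of activin, at 678 against 1877 (2.77-fold higher, interval 2.56 to 3). Nodal itself was just short of the threshold, at 835 against 1672 (log2 difference 0.99).

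Of 15 Wnt genes, 3 were at least 2-fold lower and 1 higher, beside 14.8% and 3.18% of all genes. The receptors Fzd2 (2.91-fold lower, interval 2.51 to 3.4) and Fzd7 (2.41-fold lower, interval 2.25 to 2.58) and the co-receptor Lrp6 (2.89-fold lower, interval 2.6 to 3.22, corrected -0.45) were lower. The ligand Wnt3a was higher, at 34.5 against 148 (4.3-fold higher, interval 3.07 to 6.12). Axin2, a feedback target of the pathway, stood at 289 against 225 (1.29-fold lower, interval 1.09 to 1.52). Among 13 FGF genes the receptors Fgfr2 (873 against 282, 3.09-fold lower, interval 2.72 to 3.54) and Fgfr3 (3.29-fold lower, interval 2.09 to 5.36) and the phosphatase Dusp4 (2.66-fold lower, interval 2.26 to 3.15) were lower while the ligand Fgf4 was higher. In the hedgehog list, 3 of 12 were lower, beside 14.8% of all genes: the co-receptors Gas1 and Cdon and the transcription factor Gli3. Gas1 stood at 17.7 in shGFP_UT, 8.27 in shCtbp2_UT and 23.4 in shRxr_UT, and at 1109 in shGFP_RA, 223 in shCtbp2_RA and 164 in shRxr_RA, so it was higher with RA in each line, and of the RA libraries lowest in shRxr_RA (4.98-fold lower, interval 4.33 to 5.76 in shCtbp2_RA). Gli3 stood at 713 against 138 (5.18-fold lower, interval 4.33 to 6.24, corrected -1.40) and Cdon at 555 against 159 (3.48-fold lower, interval 2.93 to 4.15, corrected -0.87), and the pathway target Gli1 stood at 93.1 against 97. The Notch receptors Notch2 (1652 against 519.6, 3.18-fold lower, interval 2.89 to 3.5) and Notch3 were lower and Notch4 higher, with the target Hes1 at 525 against 641.

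Genes of energy metabolism stood higher. Of 20 genes of glycolysis and hypoxia 16 were above the control, 4 by at least 2-fold, and 1 was at least 2-fold lower (median 0.66 in RA, 0.45 corrected and -0.15 untreated). Ldha, which makes lactate, stood at 13139 in shGFP_UT, 11568 in shCtbp2_UT and 10573 in shRxr_UT, and at 3970.0 in shGFP_RA, 8699 in shCtbp2_RA and 5331 in shRxr_RA. It was lower with RA in each line, least in shCtbp2, and 2.19-fold higher (2.12 to 2.27) in shCtbp2_RA than in shGFP_RA. Aldoa (2.04-fold higher, interval 1.99 to 2.1), Pfkp (2.11-fold higher, interval 2.02 to 2.2) and Hk1 (2.05-fold higher, interval 1.91 to 2.2) were the other members past 2-fold, and Pkm2 (13741 against 26490.2), Eno1 and Pfkl lay just under it. Corrected, Ldha, Aldoa and Hk1 were short of 2-fold at 0.84, 0.48 and 0.87, and Pfkp had 1.99. The list then had 2 members higher, Pfkp among them, and 0 lower. Bnip3, a mitophagy receptor induced by low oxygen, was lower, at 148 against 67.3 (2.2-fold lower, interval 1.66 to 2.94, corrected -0.70). Of 20 nuclear genes of the respiratory chain 18 were above the control (median 0.62 in RA, 0.52 corrected and 0.16 untreated), with Uqcrc1 (2.25-fold higher, interval 2.16 to 2.33), Sdhb (2.06-fold higher, interval 1.87 to 2.26) and Cyc1 past 2-fold and Ndufs1, a subunit of complex I, below (2.2-fold lower, interval 1.99 to 2.44). Corrected, none of the 4 was past 2-fold, at 0.94, 0.51, 0.52 and -0.60. The 1 member of 20 then past it was Ndufb2, another subunit of complex I (1.28, 0.49 before), beside 3.93% of all genes higher after correction. These transcripts are short, with a median of 1804 bases. The unfolded protein response list had 0 of 14 past 2-fold in either direction (median 0.45 in RA, 0.30 corrected and 0.13 untreated), the highest being Trib3, a pseudokinase of amino acid stress (1.99-fold higher, interval 1.9 to 2.08), and Xbp1 (1.93-fold higher, interval 1.81 to 2.05).

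Genes of DNA replication and mitosis differed little, with 0 of 24 past 2-fold in either direction and a median of -0.12 whose sign changed between settings (-0.12 to 0.29). Among regulators of the G1 phase, Ccnd2 and the retinoblastoma gene Rb1 (3.45-fold lower, interval 2.55 to 4.74, corrected -0.86) were lower and cyclin E1 (Ccne1) was higher, at 832 against 1717 (2.06-fold higher, interval 1.91 to 2.23, corrected 0.75). Of 17 p53 targets and cell death genes 6 were at least 2-fold lower and 0 higher, with 1 lower after correction (median -0.66 in RA, -0.42 corrected and -0.34 untreated). As measured, 14.8% of all genes were lower and 3.18% higher. Mdm2, which degrades p53, stood at 1493 against 546 (2.73-fold lower, interval 2.49 to 3.01, corrected -0.93), and Perp, a desmosome protein that p53 induces, was lower at both treatments (2.22-fold lower, interval 2 to 2.48, corrected -0.96 in RA, untreated log2 -1.08). Cdkn1a, the p21 inhibitor that p53 induces, stood at 762 against 934, and Bax, a cell death effector, at 2189 against 3419 (corrected 0.01). Of 8 interferon genes all were below the control, beside 7257 of all 12332 genes. Past 2-fold lower were 2, Bst2 (237 against 89.1) and Oasl2 (79.6 against 33.7), beside 14.8% of all genes. Corrected, Bst2 had -1.89 and Oasl2, at -0.85, was short of 2-fold.

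Among 21 epithelial genes 2 were higher, Krt8 and Krt17, and 4 lower, the junction genes Ocln (127 against 32.7, 3.88-fold lower, interval 2.66 to 5.82), Tjp1 (2.77-fold lower, interval 2.59 to 2.97, corrected -0.51) and Cldn6 (2.11-fold lower, interval 1.74 to 2.59) and the factor Grhl2 (corrected -0.90). The corrected value of Ocln was just short of 2-fold. Corrected, 4 members of the list were lower and 2 higher, some of them not named here. Of all genes 3.18% were higher and 14.8% lower as measured. E-cadherin (Cdh1) stood at 7881 against 8021 and N-cadherin (Cdh2), of mesenchymal and neural cells, at 372 against 108 (3.44-fold lower, interval 2.79 to 4.28). Nestin (Nes), an intermediate filament of neural progenitors, was the neuroectoderm gene farthest from the control, at 692 against 99.97 (6.92-fold lower, interval 5.63 to 8.59, corrected -2.51). Pax6 was lower (3.93-fold lower, interval 2.84 to 5.53), the tubulin gene Tubb3 higher (2.43-fold higher, interval 2.22 to 2.68, corrected 0.79) and Otx2 higher at a low level (22.5 against 61.4). Markers of other cell types were few, and 4 of 12 fibroblast genes were measured, with a summed level of 3215 in shGFP_RA and 2810.0 in shCtbp2_RA that was mostly Fbln1 (2068 against 2069). Of the blood and immune list, 2 of 11 were measured and the sums were 1203 and 2085, mostly Laptm5 (1101 against 1945), while 1 and 3 members were at 0. Sums over all list members were 1821 and 1979.5 for neuroectoderm, 1273 and 1181 for trophoblast and 430.1 and 575 for mesoderm; their part in the differences above was not tested.

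**Figure D5:**
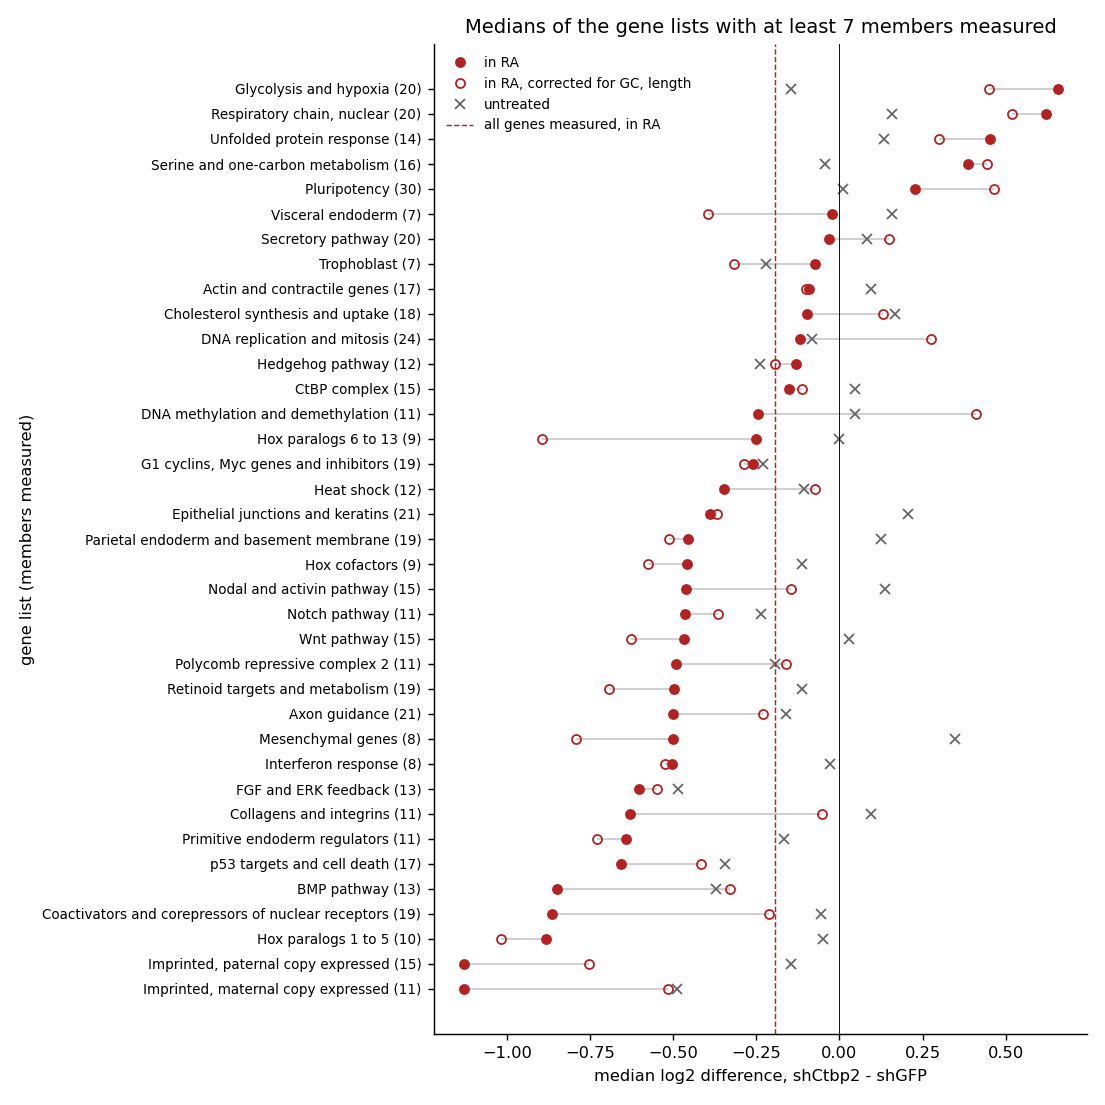
Median log2 difference of shCtbp2 from shGFP (horizontal axis) of each gene list with at least 7 measured members (vertical axis, number measured in brackets), in RA (filled red), in RA after GC content and length correction (open red) and untreated (grey crosses), with the median of all genes in RA dashed. The glycolysis and respiratory chain lists lie highest in RA and the imprinted and anterior Hox lists lowest, and the coregulator list moves from -0.87 to -0.21 with the correction.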

How the data were processed

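RNA was measured in 6 libraries of F9 cells, 1 per group, with groups taken from the labels. TopHat 1.4, HTSeq and the build mm9 are named per the submitters' processing notes, with counting mode, strand setting and gene annotation not given in the sources used here. Values in the deposited table are log2 of reads per 10000000 counted in genes, plus 1; unlogged values were whole multiples of 1 read within 1e-06, which gave the reads behind each level. All columns matched a library, with 0 left over, and 25 symbols turned into dates were restored from gene identifiers. Without a stated strand setting, overlapping and antisense genes cannot be told apart, and genes with near-identical copies or pseudogenes, such as Gapdh and Rps4y2, are uncertain.

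Levels were unlogged, and genes whose 6-library mean was at least 20 were compared on log2(value + 10), with called meaning at least 2-fold. GC content and length came from the longest GENCODE M21 transcript (GRCm38), matched by identifier for 98.4% of genes. The correction subtracted the trend of the log2 difference on both properties, drawn through medians of 20 bins of equal numbers of genes and repeated in turn; it also centres the median near 0 and would remove a real response that follows GC content or length. Scripts were tested on simulated data. Alternatives changed the number added, the filter, the scaling, the threshold and the correction. The gene lists, 43 in all with 682 genes (126 below the minimum), and all members were chosen with earlier results of these data known. The lists overlap: 33 genes were in more than 1 list and are counted in each, Lrp2, Krt8 and Tdgf1 among them. Genes named are Ctbp2, Ctbp1, Crabp2, Igf2 and Pou5f1; among the 12 highest and 12 lowest with a mean of at least 50 that were also past 2-fold after correction, and the 8 highest and 8 lowest of these with an untreated difference within 0.3 of 0; genes nearest the threshold with a mean of at least 500; and, in each list, up to 5 members farthest from 0 and members with a defining role. Some list members are counted but not reported by name here. Promoter windows were RefSeq's, matched by symbol. Tools were matplotlib 3.10.9, pandas 2.3.3, numpy 2.4.6 and scipy 1.17.1 under Python 3.11.15.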

Additional observations from a re-analysis of the deposited data

Results flagged for a closer look

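For 7 genes the difference from the control was at least 2-fold in opposite directions at the 2 treatments, higher in shCtbp2_UT than in shGFP_UT and lower in shCtbp2_RA than in shGFP_RA. With 1 library a group the difference between the treatments was not tested. The log2 differences in RA and untreated were -1.62 and 1.42 for Fry, a scaffold of the Ndr kinase pathway, -1.49 and 1.04 for Gpr161, a ciliary receptor that restrains hedgehog signalling, -1.34 and 1.28 for Clgn, the chaperone calmegin, -1.18 and 1.09 for the transcription factor Sox6, -1.11 and 1.02 for Mblac2, -1.10 and 1.32 for the palmitoyltransferase Zdhhc2, and -1.08 and 1.03 for Podxl, the surface sialomucin podocalyxin. Corrected for GC content and length, the RA difference was past 2-fold for Fry (-1.14) and short of it for the other 6, from -0.92 for Gpr161 to -0.12 for Sox6. Clgn stood at 234 normalised reads in shGFP_UT, 582 in shCtbp2_UT and 341 in shRxr_UT, and at 1609 in shGFP_RA, 630.5 in shCtbp2_RA and 1347 in shRxr_RA. The control and shRxr lines had more of it with RA than without, and in the shCtbp2 line the levels were close. Podxl stood at 443 in shGFP_UT, 918 in shCtbp2_UT and 234 in shRxr_UT, and at 637 in shGFP_RA, 296 in shCtbp2_RA and 231 in shRxr_RA, with its lowest levels in shRxr and shCtbp2_RA.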

How the results depend on the processing

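The counts of genes at least 2-fold higher and lower, 392 and 1831, depended on several choices. They were 228 and 1065 with 50 added before the logarithm in place of 10, and 478 and 2165 with 1. With a 4-fold threshold they were 35 and 85, and with 1.5-fold 1643 and 4074. Equal upper quartiles gave 622 and 1249, the GC content correction 575 and 778, the GC content and length correction 477 and 596, and a length correction alone, which was chosen after the data were seen, 646 and 754. The other settings, which were a mean of at least 100, no filter, a mean taken over the 2 libraries compared, and median-of-ratios scaling, stayed within 1.5 times of both counts (262 to 524 higher, 1368 to 2064 lower). Lower genes outnumbered higher ones under each of these settings. Of the counts in gene lists under the alternatives 165 moved by more than 1.5 times or to or from 0 and 695 did not. Of the values of named genes 148 were counted as moved, judged against counting error, and 393 were not. Some of the 393 changed all the same. With 50 added, Mblac2 went from -1.11 to -0.46 and Gpr161 from -1.49 to -0.86. No median that kept its sign is thereby shown to be stable across cultures, since each group is 1 library, and no library could be left out. No paired analysis was possible because each group holds 1 library and the labels give no replicate numbers that pair libraries.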

Other observations

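Axon guidance genes, whose products steer cells as well as axons, were lower for 7 of 21 measured members and higher for 0 (median -0.50 in RA, -0.23 corrected and -0.16 untreated), with 4 lower and 1 higher after correction. The semaphorin receptor Plxna2 stood at 66 normalised reads in shGFP_UT, 23.2 in shCtbp2_UT and 62.8 in shRxr_UT, and at 1015 in shGFP_RA, 180.1 in shCtbp2_RA and 500.2 in shRxr_RA, and was 5.63-fold lower (4.82 to 6.61, corrected -1.74) in RA. The ephrin gene Efnb2 was 4.82-fold lower (3.79 to 6.19), at 377 in shGFP_RA against 78.2 in shCtbp2_RA, and the receptor Nrp2 3.39-fold lower (2.87 to 4.02), at 576 against 170.2 and also lower untreated (log2 difference -1.04). Netrin 1 (Ntn1), a secreted guidance cue, stood at 415 against 805 (1.94-fold higher, interval 1.74 to 2.16, corrected 1.03). Among collagens and integrins 5 of 11 were lower and 1 higher. The fibronectin receptor chain Itga5 (1966 against 4143, 2.11-fold higher, interval 2.01 to 2.21, corrected 0.98) differed in direction from Itgb1, with which it pairs (5012 against 1851, 2.71-fold lower, interval 2.57 to 2.85, corrected -0.72). Corrected, 2 of that list were lower and 0 higher. Of 17 actin and contractile genes 2, vinculin (Vcl, 3.2-fold lower, interval 2.88 to 3.57, corrected -1.02) and Tpm4 (2.79-fold lower, interval 2.47 to 3.16), were lower and 2, Tagln2 (2.05-fold higher, interval 1.96 to 2.14, corrected 0.53) and Myl7, were higher at both treatments. Those counts stand beside 14.8% lower and 3.18% higher of all genes.

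Serine and one-carbon metabolism had 13 of 16 members above the control (median 0.39 in RA, 0.44 corrected and -0.04 untreated), with 2 past 2-fold and 3 after correction. The 2 were Dmgdh, a dehydrogenase of dimethylglycine (5.15-fold higher, interval 4.1 to 6.52), and Bhmt2, a methyltransferase (4.33-fold higher, interval 3.3 to 5.75), both also higher untreated (log2 differences 2.54 and 2.30). The serine synthesis enzymes Psph (1.76-fold higher, interval 1.65 to 1.87) and Phgdh (1.57-fold higher, interval 1.5 to 1.64) were short of 2-fold. Among all 12332 genes 5075 were above the control and 3.18% were at least 2-fold higher. In the cholesterol list 1 of 18, the oxidase gene Sc4mol, was lower (2.27-fold lower, interval 2.07 to 2.5, corrected -0.62), and in the heat shock list 2 of 12 were lower and 1, Hspb1 (2.16-fold higher, interval 2.03 to 2.29, corrected 0.47), higher, with 0 and 0 after correction. The medians of both lists changed sign between settings. In the secretory pathway 2 of 20 were lower and Kdelr3, a retrieval receptor of the endoplasmic reticulum, was higher (2.52-fold higher, interval 2.25 to 2.83, corrected 0.93), with 0 and 0 after correction. By class of gene, 78 cytosolic ribosomal protein genes had a median of 0.57 in RA, 0.25 corrected and 0.10 untreated, and 324 genes named Zfp had -0.45, -0.08 and -0.10, with 67 lower and 4 higher. Of 156 long intergenic noncoding RNAs 17 were lower (10.9%) and 1 higher (0.641%), both shares below the 14.8% and 3.18% of all genes. The 12 protein genes of the mitochondrial genome had a median of 0.28, with 0 past 2-fold in either direction.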
